A study of Mus musculus with 6 samples.

Results

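Genes whose symbol is Gpr followed by a number encode mostly orphan G protein-coupled receptors, and their expression was compared between thymic medullary epithelial cells of mice labelled Aire wild type (WT) and Aire knockout (KO). The members were chosen by symbol alone: 72 probe sets carried exactly 1 such symbol and represented 71 genes, out of 19938 genes with a probe set of their own. The 1 gene with 2 probe sets, Gpr31b, was read from the brighter of them. Of the 71 genes, 42 (59.2%) were bright enough to test, against 13925 (69.8%) of all genes.

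The series held 6 arrays, each from 1 mouse, 3 per genotype, so that SDs are spreads between mice. SEs come from limma, which moderates the variance of each gene by those of all tested genes. Both groups had a (B6xNOD)F1 background and were 4 to 6 weeks of age, and the second group was labelled Aire-/-, with no allele or deleted part named. Cells were sorted as CD45-, Ly51 intermediate and MHC class II high, and their RNA was amplified in 2 rounds. Values are log2 intensities made by RMA, a method that corrects background, forces all arrays to the same distribution and summarises the probes of a transcript.

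A G protein-coupled receptor crosses the membrane 7 times and passes the binding of an outside ligand to a G protein inside the cell. The receptors kept the name Gpr while no ligand was known, and several, such as the oxysterol receptor Gpr183, have since been matched to one without a change of name. Many are known from brain, endocrine organs or leukocytes, and a few, such as Gpr107, sit in membranes inside the cell. Medullary epithelial cells transcribe genes of many other organs, a part of them under the control of Aire, and so display these proteins to developing T cells.

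Array medians lay between 92.9 and 98.2 on the linear scale, and arrays correlated at 0.990 to 0.993 within a genotype and 0.976 to 0.985 between genotypes over all probe sets. Aire itself was at 11.97 ± 0.04 in WT and 12.41 ± 0.02 in the mice labelled KO (SD, n = 3 per group), which does not check the labels, since the deleted part is not known. All 10 markers of medullary epithelium lay above the intensity limit of 5.97 on every array. They include the MHC class II genes H2-Aa and H2-Ab1, for which the sort itself selected. In KO 3 of the 10 fell and 0 rose, where 14.1% of all tested genes fell and 12.0% rose. Their summed intensity ran from 35524 to 36212 in WT and from 35310 to 37414 in KO. Of 5 markers of cortical epithelium, 4 lay above the limit on every array. The exception was Psmb11, the thymoproteasome subunit of these cells, which lay below it on every array. The summed intensity of the cortical markers ran from 2432 to 2713 in WT and from 3184 to 3386 in KO, and of the 4 tested Prss16 and Tbata rose and Enpep fell. The part of cortical cells in the members' values was not tested. The summed intensity of 9 T cell markers ran from 1055 to 1789 in WT and from 749.8 to 1036 in KO. That of 10 dendritic cell and macrophage markers ran from 3570.4 to 3963 and from 3431 to 3525. For 5 tuft cell markers it ran from 889 to 1011 in WT and from 653 to 884 in KO. For 6 neuroendocrine cell markers it ran from 2375 to 2838 in WT and from 2962 to 3416 in KO. Fibroblast markers, 5 genes, summed to 1308 to 1515 in WT and 1584 to 2022 in KO. B cell markers, 4 genes, summed to 423 to 439 in WT and 480 to 508 in KO. Endothelial markers, 5 genes, summed to 311 to 350 in WT and 304 to 331 in KO. By limma 1 tuft cell marker fell and 0 rose, and 2 neuroendocrine markers rose and 0 fell. Of the fibroblast markers 1 fell and 1 rose, of the B cell markers 2 rose, and 0 endothelial markers were called. The part of these cells in the members' values was not tested either. In bulk RNA, fewer cells of a type and less RNA per cell cannot be told apart.

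The comparison of the genotypes asks which of these receptors depend on Aire. A large fall of Gpr50 stood beside small changes of the other members. Of the 42 tested genes, 2 fell in KO (Gpr50 and Gpr83) and 6 rose (Gpr162, Gpr153, Gpr63, Gpr160, Gpr146 and Gpr107) by limma with Benjamini-Hochberg adjustment over all 13925 tested genes at a threshold of 0.05. These 8 genes are 19.0% of the tested members, beside 26.1% called among all tested genes. By direction, 4.76% of the members fell, beside 14.1% of all tested genes, and 14.3% rose, beside 12.0%. A fall of 2-fold or more was found in 1 member, Gpr50, and in 2.11% of all tested genes, while a rise of that size was found in no member and in 0.524% of all tested genes.

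**Figure D1:**
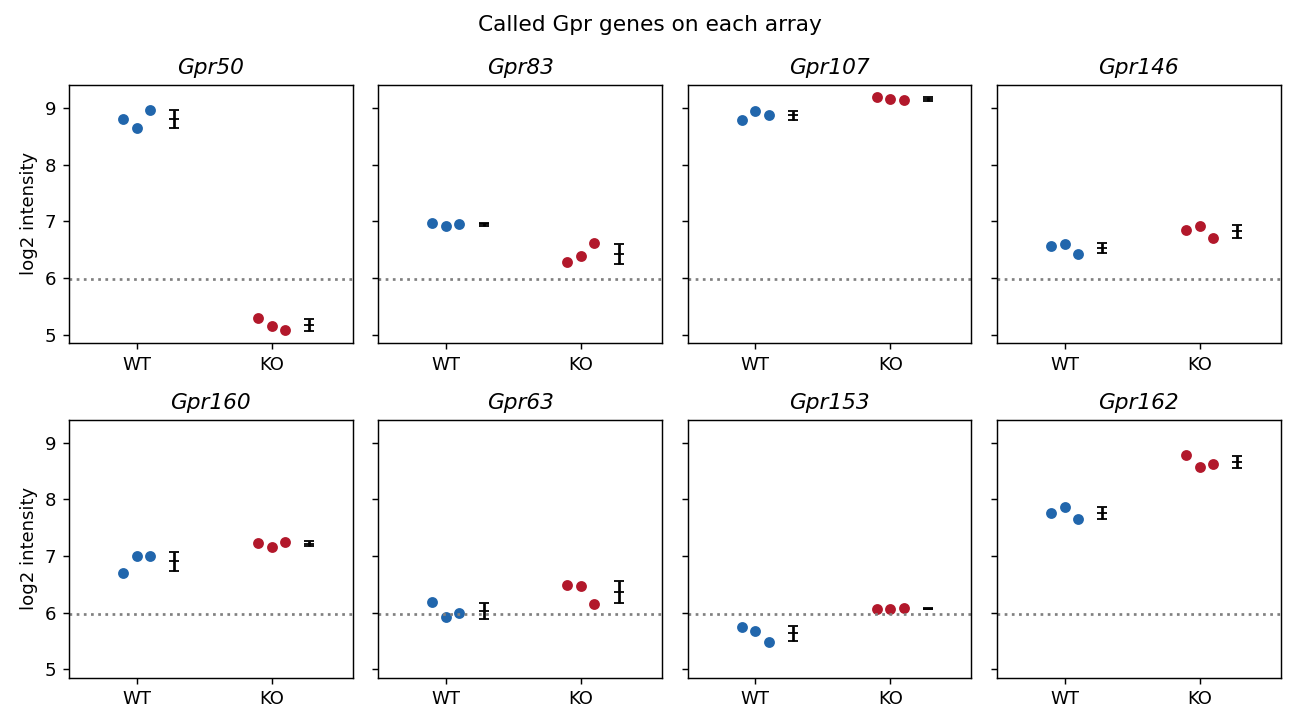
Log2 intensity of the 8 called genes on each array (points, 3 WT in blue and 3 KO in red), with mean and SD in black and the intensity limit for testing, 5.97, as a dotted line. Gpr50 lies between 8.65 and 8.97 in WT and between 5.07 and 5.29 in KO, while the other 7 genes differ by less than 1 log2 unit and Gpr63 overlaps.

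Gpr50 (probe set 10600024, X chromosome) encodes a relative of the melatonin receptors that does not bind melatonin and is known from hypothalamus and pituitary. Its log2 intensity was 8.82, 8.65 and 8.97 in the 3 WT mice and 5.29, 5.15 and 5.07 in the 3 KO mice. The groups stood far apart, and all 3 KO arrays lay below the intensity limit. Gpr50 fell by 3.64 on the log2 scale, or 12.5-fold (SE 0.10, 3 mice per group, limma adjusted p = 1.8e-09, 95% interval -3.86 to -3.42). It passed the limit on WT arrays alone, so the test could only find a fall, and its fold is limited by the background in KO. With an offset of 32 added to the intensities the log2 change was -2.82, and without any 1 array it lay between -3.72 and -3.56.

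Gpr83 (probe set 10583286, chromosome 9) encodes a receptor of brain that is also known from regulatory T cells. It was at 6.98, 6.92 and 6.95 in WT and at 6.27, 6.39 and 6.61 in KO. Every KO array was below every WT array, and the KO mice were more spread out. The fall was 0.52 on the log2 scale (SE 0.10, limma adjusted p = 0.0022), or 1.44-fold, and it was called in all 14 alternatives that gave it a value. Of 8 tested T cell markers, 2 fell and 0 rose, Cd3g by 1.40 and Ptprc by 0.62, where 14.1% of all tested genes fell and 12.0% rose. The log2 change was negative in 7 of the 8, with a median of -0.33, and the 6 that were not called ran from -0.50 for Rag1 to 0.04 for Ptcra. Their part in the fall of Gpr83 was not tested.

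Among the genes that rose, Gpr162 (probe set 10547888, chromosome 6), an orphan receptor known from brain, changed most. It was at 7.75, 7.86 and 7.66 in WT and at 8.78, 8.57 and 8.63 in KO. All KO arrays were above all WT arrays. The rise was 1.87-fold, 0.90 on the log2 scale (SE 0.09, limma adjusted p = 3e-05), and it was called in all 15 alternatives.

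Gpr153 (probe set 10510700, chromosome 4), the closest relative of Gpr162, rose as well. Its intensities were 5.74, 5.68 and 5.49 in WT and 6.07, 6.07 and 6.08 in KO. The KO arrays were nearly equal and lay just above the intensity limit, and the WT arrays lay below it. The rise was 0.44 on the log2 scale (SE 0.09, limma adjusted p = 0.0038), and, since the gene passed the limit on KO arrays alone, only a rise could be found.

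The other rises were of 1.23- to 1.27-fold, and each lost its call in some alternatives. Gpr63, a brain receptor, was at 6.18, 5.92 and 5.99 in WT and at 6.49, 6.47 and 6.15 in KO, with overlapping groups. Its log2 change was 0.34 (SE 0.11, limma adjusted p = 0.042), and it was called in 6 of 14 alternatives, with adjusted p between 0.016 and 0.15. The call was lost without WT replicate 2 (0.12), WT replicate 3 (0.094), KO replicate 1 (0.15) or KO replicate 2 (0.13).

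Gpr160, reported as a receptor of the CART peptide, was at 6.71, 7.00 and 7.01 in WT and at 7.24, 7.17 and 7.26 in KO. The groups did not overlap, and WT replicate 1 was the lowest. Its log2 change was 0.32 (SE 0.10, limma adjusted p = 0.033), and the call was lost when WT replicate 1 (adjusted p = 0.12) or any KO array was left out (0.094, 0.054 and 0.11 without replicates 1, 2 and 3).

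Gpr146, known from liver and from the control of plasma cholesterol, was at 6.57, 6.60 and 6.42 in WT and at 6.85, 6.92 and 6.70 in KO, without overlap. Its log2 change was 0.30 (SE 0.09, limma adjusted p = 0.032), and the call was lost without WT replicate 1 (0.057), WT replicate 3 (0.076), KO replicate 1 (0.098) or KO replicate 2 (0.10).

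Gpr107, a Golgi membrane protein known from the uptake of toxins, was at 8.78, 8.94 and 8.89 in WT and at 9.20, 9.16 and 9.14 in KO, without overlap. Its log2 change was 0.29 (SE 0.08, limma adjusted p = 0.021), and the call was lost on leaving out WT replicate 1 (0.082), KO replicate 3 (0.054) or KO replicate 1 (0.079). Counted over the members, 2 genes rose without KO replicate 1 and 3 without KO replicate 2, against 6 with all arrays.

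The start regions of the called genes were read from RefSeq (GRCm38.p6), as 300 bases from 250 before to 50 after an annotated start. Such a window was found for 53 of the 71 members and for 7 of the 8 called ones, all but Gpr162. The 4 called genes with a single annotated start are shown, both that fell and 2 that rose, with each CG pair in capitals. CG pairs mark the start regions of broadly expressed genes. The windows are chrX:71663417-71663716 for Gpr50, chr9:14859960-14860259 for Gpr83, chr2:31152066-31152365 for Gpr107 and chr3:30855700-30855999 for Gpr160, all on the plus strand.
Gpr50: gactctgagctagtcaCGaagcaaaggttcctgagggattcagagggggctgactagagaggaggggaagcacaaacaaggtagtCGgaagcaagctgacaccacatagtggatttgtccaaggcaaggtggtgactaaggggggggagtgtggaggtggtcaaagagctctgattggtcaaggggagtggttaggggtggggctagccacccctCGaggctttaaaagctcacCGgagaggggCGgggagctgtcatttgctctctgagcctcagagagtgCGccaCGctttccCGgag
Gpr83: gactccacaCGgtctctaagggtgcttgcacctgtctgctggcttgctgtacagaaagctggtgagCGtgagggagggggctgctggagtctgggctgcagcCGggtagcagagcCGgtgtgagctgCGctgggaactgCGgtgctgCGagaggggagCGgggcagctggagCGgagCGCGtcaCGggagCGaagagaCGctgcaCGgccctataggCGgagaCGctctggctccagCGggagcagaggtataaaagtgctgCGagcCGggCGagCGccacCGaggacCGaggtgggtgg
Gpr107: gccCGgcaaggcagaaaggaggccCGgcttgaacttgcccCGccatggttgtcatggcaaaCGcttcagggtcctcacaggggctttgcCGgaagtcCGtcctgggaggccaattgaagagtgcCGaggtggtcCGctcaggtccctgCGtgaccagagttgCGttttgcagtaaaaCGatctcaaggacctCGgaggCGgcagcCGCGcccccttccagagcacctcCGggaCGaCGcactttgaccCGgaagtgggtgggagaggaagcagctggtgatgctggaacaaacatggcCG
Gpr160: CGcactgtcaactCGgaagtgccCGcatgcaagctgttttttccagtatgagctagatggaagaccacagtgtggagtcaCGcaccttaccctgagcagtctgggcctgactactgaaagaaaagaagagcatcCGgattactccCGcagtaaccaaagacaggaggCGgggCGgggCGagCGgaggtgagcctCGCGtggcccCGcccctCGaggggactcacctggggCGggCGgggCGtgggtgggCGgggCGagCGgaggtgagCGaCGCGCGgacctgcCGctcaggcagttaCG

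The window of Gpr50 held 8 CG pairs, that of Gpr83 24, that of Gpr107 20 and that of Gpr160 26, where the median was 8 over the 69 windows of members and 7 over all 32851 windows. The pair of genes that fell thus differed from each other in CG content. Windows with 10 or more CG pairs made up 43.5% of those of members and 43.5% of all. The letters TATAAA, read on both strands, were present in the window of Gpr83, beginning 1 base before the start, and in none of the other 3. They were present in 10.1% of the windows of members and 13.6% of all windows. CCAAT, read in the same way, was present in Gpr50 and Gpr107 and in 43.5% of members' windows and 37.4% of all, and GGGCGG, which contains a CG pair, in Gpr50 and Gpr160 and in 37.7% and 35.7%.

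The members lay on 19 chromosomes, 9 of them on the X chromosome. Of the 16 tested genes next to the 8 called members, 1 fell, 2 rose and 13 were not called, so that 18.8% were called, beside 26.1% of all tested genes. Hmgb3, a chromatin protein gene next to Gpr50, fell by 0.45 on the log2 scale (limma adjusted p = 0.0021), and Vma21 on the other side, at -0.40, was not called (adjusted p = 0.055). Next to Gpr162, the T cell coreceptor gene Cd4 was at -0.22 and P3h3 at 0.08, neither called. Phc3, a Polycomb gene next to Gpr160, rose by 0.77, and C130050O18Rik next to Gpr146 by 0.24. Next to Gpr83, Izumo1r was at 0.07 and Mre11a at -0.07, and neither was called. The neighbours were chosen by position after the members had been called.

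**Figure D2:**
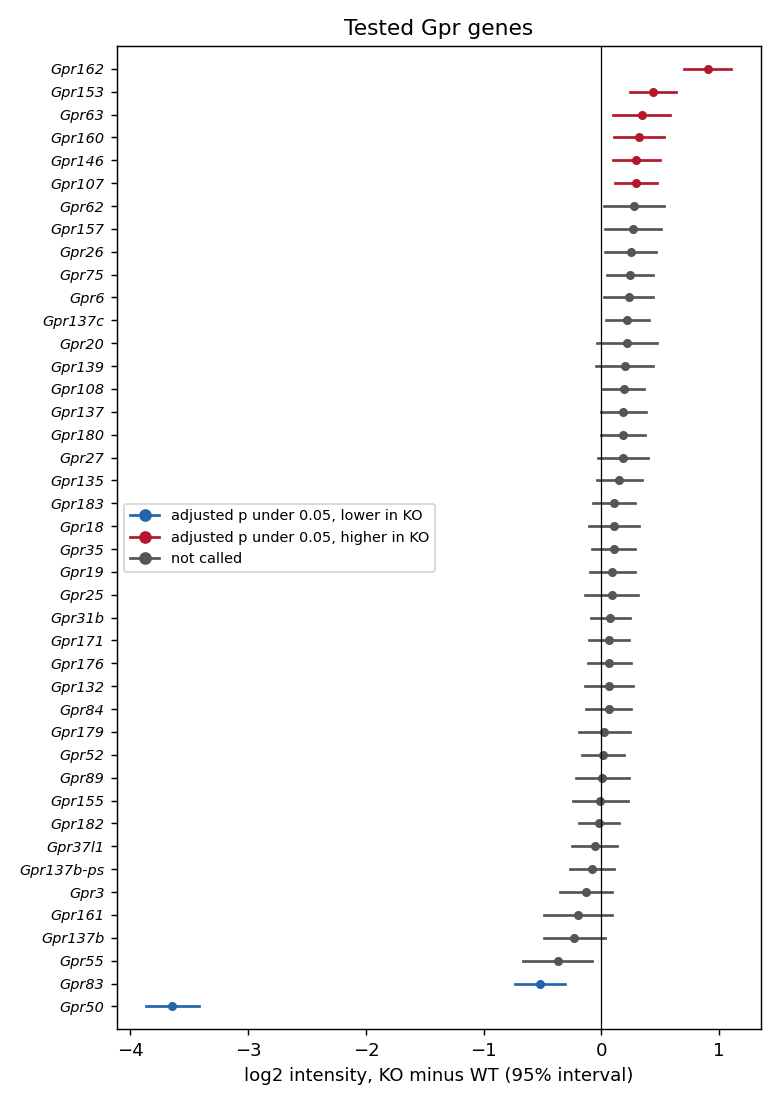
Log2 change, KO minus WT, of the 42 tested Gpr genes with its 95% interval from limma, in order of size. Gpr50 at -3.64 and Gpr162 at 0.90 stand apart, and the 34 genes that were not called lie between -0.37 and 0.28.

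Small positive changes were frequent. Of the 42 tested members, 32 (76.2%) had a positive log2 change, against 52.6% of all tested genes, and their median change was 0.11, against 0.02. Over all 71 members the median was 0.11, against 0.04 over all 19938 genes. The median of the tested members stayed above 0 in all 15 alternatives, from 0.08 without WT replicate 3 to 0.18 with the stricter intensity limit, at which 15 members were left. The groups did not overlap in 13 tested members (31.0%), 11 with KO above WT and 2 below, where 42.4% of all tested genes had groups that did not overlap, 22.0% with KO above and 20.5% below. Of the 34 uncalled genes, 31 had a 95% interval inside ±0.5 on the log2 scale, and the exceptions were Gpr55, Gpr62 and Gpr157. These intervals are not adjusted for the number of genes.

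The hormone, metal and nutrient receptors comprised 9 genes, 6 of them tested. Gpr50 fell (16.7%) and Gpr146 and Gpr160 rose (33.3%), beside 14.1% and 12.0% of all tested genes. Gpr75, Gpr20 and Gpr182 were not called. Gpr75 was at 6.31, 6.49 and 6.23 in WT and 6.57, 6.59 and 6.59 in KO, without overlap, at a log2 change of 0.24 (SE 0.09, limma adjusted p = 0.065). Gpr182, known from the endothelium of lymphatic vessels, stood at -0.02 with an interval of -0.19 to 0.15. Gpr39, a zinc-sensing receptor, Gpr119 of gut endocrine cells and Gpr142 of pancreatic islets were too dim to test.

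Of 21 receptors known mainly from brain, 12 were tested, of which 1 fell (Gpr83) and 3 rose (Gpr162, Gpr153 and Gpr63). Limma thus called 33.3% of the 12, beside 26.1% of all tested genes, of which 14.1% fell and 12.0% rose. The remaining 8 of the 12 lay between -0.06 for Gpr37l1, a receptor of astrocytes, and 0.28 for Gpr62, and were not called. Gpr62 was at 7.44, 7.30 and 6.99 in WT and 7.42, 7.52 and 7.63 in KO, so that the groups overlapped through WT replicate 1, without which it was called (adjusted p = 0.043). Gpr26 and Gpr139 were at 0.25 and 0.20, Gpr135 at 0.15, Gpr19 at 0.09, Gpr176, a receptor of the circadian clock, at 0.07 and the striatal receptor Gpr52 at 0.01. Another 9, among them Gpr37, Gpr101, Gpr149 and Gpr151, were too dim to test.

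Of 17 receptors grouped here as receptors of leukocytes, 8 were tested. By limma 0 of the 8 were called at an adjusted p under 0.05, beside 26.1% of all tested genes. Only 1 of the 8, Gpr55, had an unadjusted p under 0.05. Gpr183, which guides B cells and dendritic cells along oxysterols, was at 8.12, 8.19 and 8.17 in WT and 8.19, 8.27 and 8.35 in KO. Its groups met at 8.19, and its log2 change was 0.11, with an interval of -0.07 to 0.29. Gpr18, the gene next to it on chromosome 14, was at 0.11 too, and Gpr35, Gpr25, Gpr31b, Gpr171 and the fatty acid receptor Gpr84 lay between 0.06 and 0.11. The 95% intervals of these 7 genes all lay between -0.14 and 0.32.

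Gpr55, a receptor of lysophospholipids, was the exception among them. It was at 6.32, 6.42 and 6.32 in WT and at 5.75, 6.34 and 5.87 in KO. KO replicate 2 lay within the WT range, and the other KO arrays were below it. The log2 change of -0.37 was not called (SE 0.13, limma adjusted p = 0.060). It was called at -0.55 without KO replicate 2 (0.0029), at -0.37 with the replicate number as a block (0.032) and at -0.44 with array weights (0.013).

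Markers of leukocytes moved in the same samples. Of 7 tested markers of dendritic cells and macrophages 3 fell, Adgre1 by 1.58, Itgam by 1.29 and Csf1r by 0.54, and Cd68 rose by 0.32, where 14.1% of all tested genes fell and 12.0% rose. Adgre1 and Itgam passed the intensity limit on WT arrays alone, so that only a fall could be found for them. Of 4 B cell markers, 2 were too dim to test, and the other 2, Cd79b and Pax5, rose, by 0.24 and 0.31. The median log2 change over all 4 was 0.06. The part of these cell types in the values of the leukocyte receptors was not tested. The other 9 genes of this group, Gpr1, Gpr15, Gpr17, Gpr33, Gpr34, Gpr82, Gpr141, Gpr141b and Gpr174, were too dim to test.

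**Figure D3:**
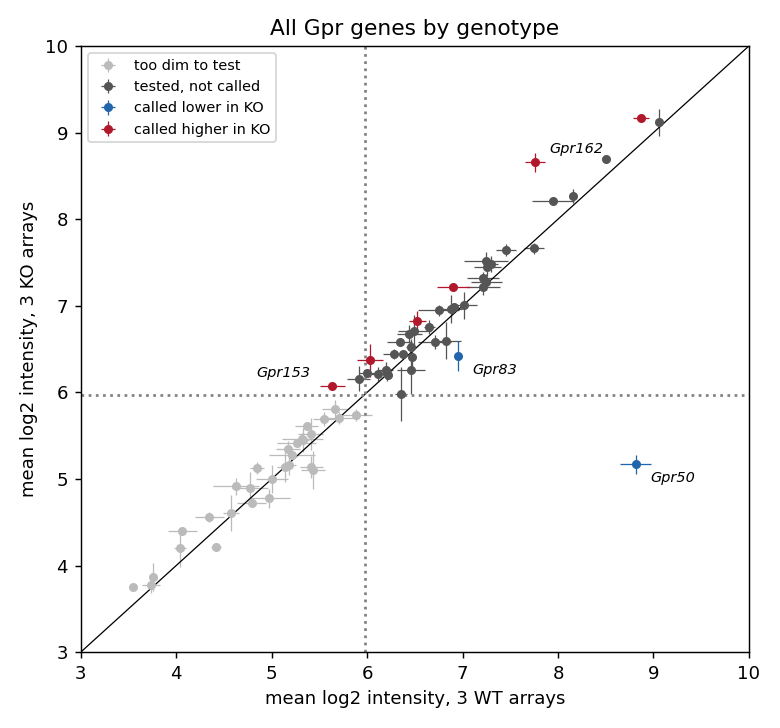
Mean log2 intensity of each of the 71 Gpr genes in WT (x axis) and KO (y axis), 3 arrays each, with SD bars, the line of equality and the intensity limit of 5.97 as dotted lines. The 29 genes too dim to test lie at the lower left, and Gpr50 is alone in the lower right field, bright in WT and dim in KO.

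Membrane proteins inside the cell comprised 10 genes, 9 of them tested, and 1 rose, Gpr107 (11.1%, beside 12.0% of all tested genes). In 5 of the 9 (55.6%) every KO array was above every WT array, beside 22.0% of all tested genes. These were Gpr107, its relative Gpr108, Gpr137 and Gpr137c, which sit on lysosomes, and Gpr180. Gpr108 was at 8.49, 8.47 and 8.55 in WT and at 8.72, 8.65 and 8.71 in KO. Its log2 change of 0.19 was not called (SE 0.08, limma adjusted p = 0.097). Gpr137 and Gpr180 were also at 0.19, and Gpr137c at 0.22. Gpr89, an anion channel of the Golgi, was at 0.01 and the lysosomal protein Gpr155 at -0.01. Gpr137b was at -0.23 and Gpr137b-ps at -0.08, but these are near copies of each other, so that their probes may share transcripts, and both values are uncertain. Gpr143, the pigment cell protein lost in ocular albinism, was too dim to test.

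The remaining families gave no call. Of the receptors that raise cyclic AMP without a ligand, Gpr3 was at -0.13 and Gpr6 at 0.23. Of the acid-sensing family, Gpr132 was at 9.03, 9.07 and 9.06 in WT and 9.30, 9.01 and 9.05 in KO, with KO replicate 1 alone above the rest, and its change of 0.06 had an interval of -0.14 to 0.27. Gpr4 and Gpr65 of that family were too dim to test. Gpr27, of a receptor group conserved in vertebrate brain, was at 0.18, and its relatives Gpr85 and Gpr173 were too dim. Gpr161, a cilium receptor that restrains hedgehog signalling, was at -0.20, Gpr179 of the retina at 0.03 and Gpr157 at 0.27.

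The 29 genes too dim to test had log2 intensities between 3.51 and 6.05, and changes between -0.33 for Gpr158 and 0.33 for Gpr174. KO lay above WT without overlap in 4 of the 29 and below in 2, where it did so in 22.0% and 20.5% of all tested genes. The share over all dim genes was not counted. With no intensity limit, 7 of all 71 members rose and 2 fell, where 8.93% of all 19938 genes rose and 11.0% fell. Gpr12, another receptor that signals without a ligand, was then called at 0.28 (adjusted p = 0.037), and Gpr174, a lysophosphatidylserine receptor of lymphocytes, at 0.33 (0.028), while Gpr63 was no longer called (0.0501). Gpr12 was at 4.93, 4.82 and 4.79 in WT and at 5.15, 5.19 and 5.05 in KO, and Gpr174 at 3.89, 4.14 and 4.16 and at 4.44, 4.37 and 4.38. Intensities this low do not show that a gene is expressed, since the deposited values carry no detection call.

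Genes that make or remove ligands of these receptors were read from a list chosen with earlier results of these data known. Of 8 such genes, all tested, 2 fell and 2 rose, where 14.1% of all tested genes fell and 12.0% rose. Pla1a, which releases lysophosphatidylserine, the ligand of Gpr34 and Gpr174, was at 8.96, 9.18 and 9.15 in WT and at 10.63, 10.29 and 10.49 in KO. All KO arrays were more than 1 log2 unit above the WT arrays. The rise was 2.59-fold (log2 change 1.38, SE 0.10, limma adjusted p = 3e-06).

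Around the ligand of Gpr183, Ch25h, the enzyme of its first step, fell by 0.63 (adjusted p = 0.011), Cyp7b1, of the next step, was at -0.04 and not called, and Hsd3b7, which breaks the ligand down, rose by 0.34 (adjusted p = 0.0097). Ch25h was at 6.67, 6.95 and 6.62 in WT and 5.73, 6.30 and 6.33 in KO, without overlap. Rarres2, the gene of chemerin, a ligand of Gpr1, was 7.04 ± 0.13 in WT and 6.39 ± 0.20 in KO (SD, n = 3) and fell by 0.65 (limma adjusted p = 0.0014). Pcsk1n, the precursor of a peptide reported for Gpr83, was at 0.29 (adjusted p = 0.053), prosaposin (Psap), reported for Gpr37 and Gpr37l1, at 0.16, and 2610528A11Rik, the gene of the Gpr15 ligand, at 0.19. None of these 3 was called.

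Genes that act below the receptors were called about as often as other genes. Of 45 tested genes of G protein signalling, 4 fell and 7 rose (24.4% called, beside 26.1% of all tested genes), with a median log2 change of -0.01. RGS proteins, which switch G proteins off, held 7 of the 11, with 3 falls and 4 rises among 15 tested (46.7% called, beside the same 26.1%). Rgs4 fell 1.99-fold from 10.02 ± 0.21 to 9.03 ± 0.31, Rgs1 1.95-fold and Rgs2 1.43-fold, and Rgs17, at 8.60 ± 0.09 in WT and 9.43 ± 0.10 in KO, rose 1.77-fold (SD, n = 3). Rgs20, Rgs14 and Rgs11 rose by 0.47, 0.45 and 0.44 on the log2 scale. Of 6 tested arrestins and receptor kinases 2 rose (33.3%, beside 12.0% of all tested genes) and 0 fell. Grk5 rose by 0.40 and Grk1, the kinase of photoreceptors, by 0.62. Grk1 passed the intensity limit on KO arrays alone, so that only a rise could be found for it.

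Of 12 tested alpha subunits 1 fell (8.33%, beside 14.1% of all tested genes), Gnai3 by 0.31 (limma adjusted p = 0.0497), and 0 rose. The log2 change was negative in 9 of the 12, with a median of -0.13, and was lowest for Gnat3, the taste cell subunit gustducin, at -0.52, which was not called (adjusted p = 0.065). Of 12 tested beta and gamma subunits 1 rose (8.33%, beside 12.0% of all tested genes), Gnb4 by 0.24 (0.046), and 0 fell. Their changes ran from -0.19 to 0.24, with a median of 0.04. Gnai3 and Gnb4 each lost its call in several alternatives, among them the fits that left out WT replicate 1 (adjusted p = 0.13 for Gnai3 and 0.098 for Gnb4), WT replicate 3 (0.11 and 0.089), KO replicate 3 (0.19 and 0.13) or KO replicate 1 (0.15 and 0.13).

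Receptors that once carried the name Gpr and were renamed were read for comparison. Of 15 tested receptors renamed after a ligand, 1 rose and 1 fell (6.67% each), beside 12.0% and 14.1% of all tested genes. Prokr2, a prokineticin receptor, was at 8.88 ± 0.25 in WT and 10.21 ± 0.05 in KO (SD, n = 3), a 2.50-fold rise. Lpar6, a lysophosphatidic acid receptor, fell 1.44-fold. Of 8 tested adhesion receptors, which carry long outer domains, 3 fell (37.5%) and 1 rose (12.5%), beside the same 14.1% and 12.0%. Adgrg6 fell by 0.70, Adgrg1 by 0.68 and Adgrg7 by 0.63, and Adgrd1 rose by 0.31 with overlapping groups. Over all 23 tested renamed receptors 4 fell and 2 rose (26.1% called, beside 26.1% of all tested genes). Adgrd1 lost its call without WT replicate 1 (0.12), WT replicate 2 (0.13), KO replicate 1 (0.18) or KO replicate 2 (0.10). Over the 23 tested renamed receptors the median was -0.09, beside 0.11 for the genes still named Gpr. A difference between these sets was not tested.

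**Figure D4:**
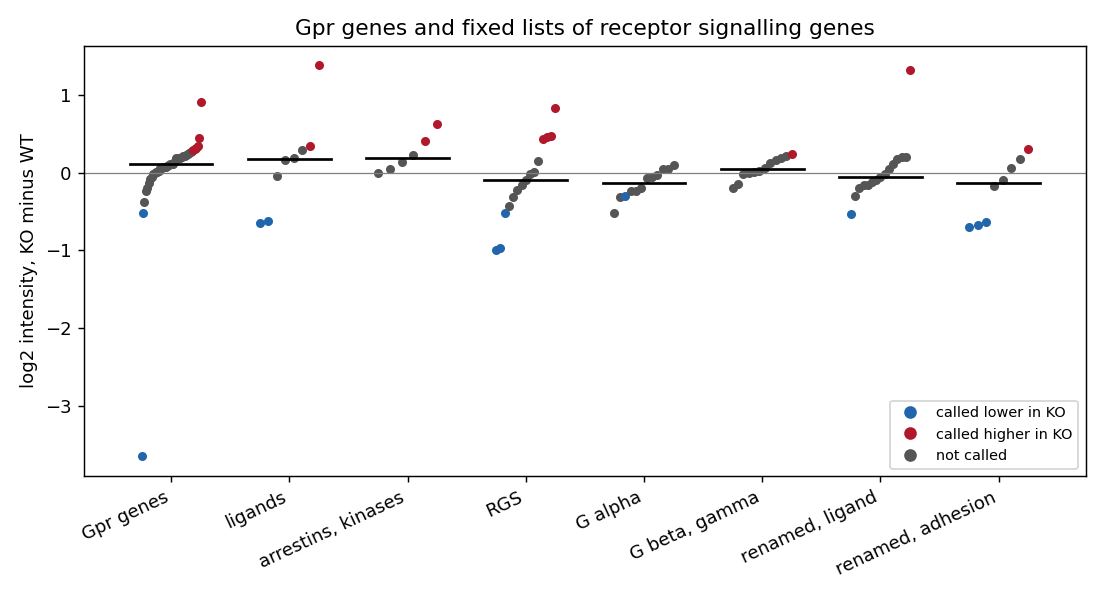
Log2 change, KO minus WT, of each tested gene (points) and the median (black line) for the Gpr genes, the ligand genes, 4 groups of G protein signalling genes and 2 groups of renamed receptors. Gpr50 at -3.64 is the lowest point, and Pla1a at 1.38 and Prokr2 at 1.32 are the highest.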

How the data were processed

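Expression was measured in 3 WT and 3 KO samples on whole-transcript mouse arrays. The authors deposited linear-scale intensities from RMA, as the submitters' processing notes name it; its version and the genome build were not given in the sources used here. Probe sets were named from the platform annotation (21789 with 1 symbol, 1621 with several and 12102 with none), and 0 value columns were left unmapped.

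Intensities were log2 transformed (pseudocount 0), and each gene was read from the probe set with the highest mean. Genes above 5.97, the 40th percentile over all probe sets and arrays, on at least 3 arrays were tested. The test was limma 3.58.1 (lmFit, eBayes, two-sided) in R 4.3.3 on genotype alone, with Benjamini-Hochberg adjustment over all tested genes, and it was tested on simulated data. Figures were drawn with matplotlib 3.10.9. RMA values carry no detection call, background compresses folds of dim genes, and precision is limited by having 3 arrays per group.

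Members, role groups and lists were chosen with earlier results of these data known. Named genes are all called members, the 8 brightest, the 8 uncalled of largest change, described role groups, up to 8 called genes per list, and the ligand genes. Alternatives covered the intensity limit (none, or the 60th percentile), normalization, an offset, the probe set rule, variance model, array weights, a replicate block and each array left out.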

Additional observations from a re-analysis of the deposited data

How the results depend on the processing

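Of 135 counts and medians recomputed under 15 alternatives, 122 stayed within 1.5 times the reported count or within the spread between arrays, and of 673 values of 46 single genes 0 changed direction with a call, 43 lost and 15 gained one. With the stricter intensity limit of 7.17, which left 15 members, 1 member fell and 2 rose, the members' median was 0.18, and 4 signalling genes rose. Array weights gave 7 falling signalling genes. Without 1 array at a time, the members that rose numbered 2 to 6 and those that fell 2 to 3, all tested genes that rose numbered 1052 to 1547, and the renamed receptors that rose 1 to 2. The lowest count of all rising genes, 1052, came without KO replicate 1. The same replicate numbers stand in both groups. Deviations of same-numbered arrays from their group means correlated at -0.02, -0.21 and -0.06, so no pairing by number was seen. With 3 arrays per group, such correlations cannot exclude a pairing of the samples. With the replicate number as a block, 3 members fell and 6 rose, 1742 and 1368 of all tested genes did, and 1 renamed receptor rose. Depth is not defined for arrays: 29 of 71 members lay too near the background to be tested.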
